A study of Mus musculus with 9 samples.

Results

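The genes of the sperm axoneme and of motile cilia were followed through acRIP-seq of mouse testis. They were chosen by symbol alone: protein-coding genes whose names begin with Dnah, Dnaic, Dnai, Dnal, Dnali, Dnaaf, Cfap, Rsph, Tekt or Drc and a digit. The count table held 71 such genes among 55401 genes, of which 21897 were protein-coding. In this method, mRNA that binds an antibody raised against N4-acetylcytidine (ac4C), an acetylated form of cytidine, is pulled down and sequenced. All 9 libraries came from testes of wild-type (WT) ICR mice, whose age is not given in the sources used here. The input group (3 libraries) was poly(A) RNA that was not precipitated, with no antibody. The IgG-enriched group (3 libraries) was RNA recovered with a rabbit isotype immunoglobulin, and the acRIP group (3 libraries) was RNA recovered with the anti-ac4C antibody. No allele, drug or treatment distinguished the groups, and an in vitro transcribed beta-globin probe carrying ac4C was added to the RNA. The sources do not say whether the 3 libraries of a group came from separate animals or precipitations, so p-values measure the spread between these libraries, which may be technical.

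The axoneme is the microtubule core of the sperm tail and of motile cilia, a ring of doublet microtubules around a central pair. Outer and inner dynein arms, built from very large heavy chains with intermediate and light chains, walk along the neighbouring doublet and bend the tail. Radial spokes and the nexin-dynein regulatory complex transmit control signals to the arms, tektins and other filament proteins line the doublets, and cytoplasmic assembly factors build the arms before transport. In the testis the mRNAs of these proteins are made by meiotic and post-meiotic germ cells before the tail elongates. Mutations in many of them cause immotile or malformed sperm.

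Total counts ranged from 22023925 to 31340090 in the input, from 14647542 to 18786779 in the IgG-enriched group and from 16025779 to 18639134 in the acRIP group. Axoneme genes took 1.07% ± 0.006 of the counts in the input (SD, n = 3), 0.905% ± 0.0145 in the IgG-enriched group and 0.863% ± 0.0043 in the acRIP group. Most low counts were even (81.94% to 84.26% of counts from 1 to 20), so if both mates of a pair were counted the number of fragments is smaller than the count. Markers of elongating spermatids dominated every library, with a summed level of 27100 to 34800 FPKM over 6 genes. Those of round spermatids summed to 1370 to 1410 FPKM in the input, 973 to 988 in the IgG-enriched group and 997 to 1000 in the acRIP group, and those of spermatocytes to 267 to 279, 237 to 252 and 182 to 196 FPKM. Markers of the efferent duct and epididymis, the other ciliated or adjoining epithelia a testis sample could hold, summed to 1.88 to 2.9 FPKM in the input, 1.31 to 2.12 FPKM in the IgG-enriched group and 0 to 0.264 FPKM in the acRIP group. Of these 6 markers, Lcn5, Lcn8 and Spag11b had at most 3 counts in every input library. In bulk RNA, fewer cells of a type and less RNA per cell cannot be told apart.

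Promoter sequences are shown because RFX transcription factors, which drive ciliary genes, bind the X-box, a palindrome with GTTGCC as the core of each arm. Windows from 250 bases before to 50 bases after the transcript start were taken from RefSeq (GRCm38.p6), which held 59 of the 71 genes. This core, searched on both strands, was present in 22 of the 59 genes (37.3%), against 14.1% of 27025 genes with such a window. The full X-box palindrome, searched with 1 free base in each arm, no other mismatch and a fixed central pair, was in 0 of the 59 genes and in 0.152% of all. A form of it with any central pair of bases, chosen after the data were seen, was found in 1 gene (1.7%), Cfap298, against 0.529% of all, and its match there overlaps the core on both strands. The windows below hold the core or its reverse complement in capitals, on the strand of the gene, with 8 bases on each side; in Cfap298 the capitals mark the whole palindrome.
Cfap298 (chr16:90935016-90935045, minus strand): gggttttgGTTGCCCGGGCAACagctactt
Cfap44 (chr16:44394772-44394793, plus strand): gttgctatGGCAACcgcagtaa
Tekt1 (chr11:72361884-72361905, minus strand): tccgtccgGTTGCCatagagac
Tekt2 (chr4:126325697-126325718, minus strand): ggttgctcGGCAACcagagccg
Rsph3b (chr17:6948327-6948348, minus strand): ggttgctcGGCAACcgatgggg
Cfap97d2 (chr8:13705862-13705883, plus strand): ggtgccatGGCAACcgtcacat
Dnah10 (chr5:124725057-124725078, plus strand): ctggcgccGTTGCCcaggtccc
Dnah7a (chr1:53706971-53706992, minus strand): tcctcacaGTTGCCtgccaccc
Dnah7b (chr1:46066682-46066703, plus strand): ggagcacaGTTGCCacccaccc
Dnah7c (chr1:46425291-46425312, plus strand): tcctcagaGTTGCCttccaccc
The 3 near-identical inner arm genes Dnah7a, Dnah7b and Dnah7c each held 1 core upstream of the start. A match describes these letters and not binding. Palindromes with an imperfect arm were not searched, so a window shown with a single core may still hold a second, imperfect arm.

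Levels in the input, compared per length as FPKM (counts scaled to the length of merged exons and to the library's total count on genes), spanned from 685 for Rsph1 to 0 for Dnah12, with a median of 20.3. There were 45 genes above 10 FPKM, 18 from 1 to 10 FPKM and 8 below 1 FPKM. Rsph1, a radial spoke head protein, stood at 694, 683 and 678 FPKM in the 3 input libraries. Cfap206, a radial spoke-associated protein, followed at 428, 426 and 426 FPKM. The libraries of these genes did not overlap with each other or with the next gene in the order. Dnaaf1, a dynein assembly factor, at 276, 271 and 282 FPKM, and Tekt1, a tektin of the doublets, at 275, 275 and 264 FPKM, overlapped. Along the whole order, 32 of the 70 pairs of neighbouring genes were separated without overlap between libraries.

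**Figure D1:**
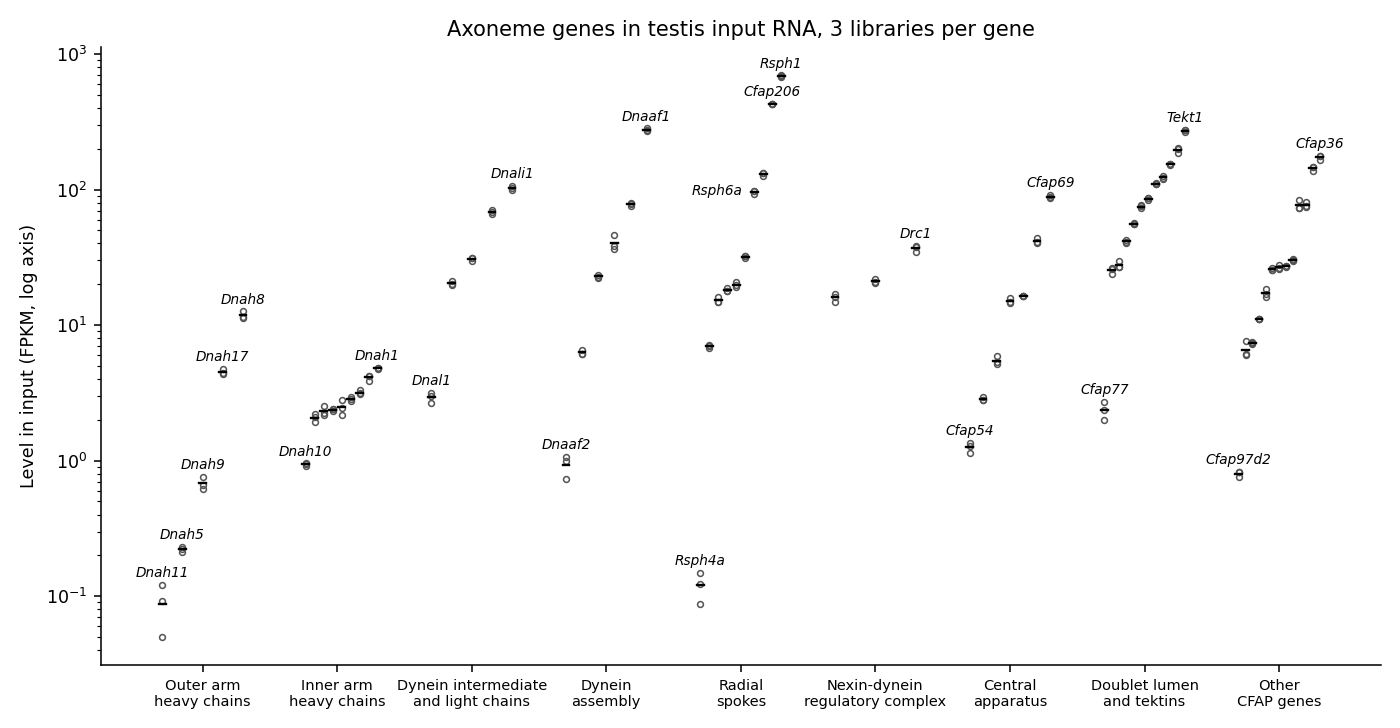
Level of each axoneme gene in the 3 input libraries (open circles, FPKM on a log axis) and its mean (bar), grouped by role and ordered within a role; Dnah12, at 0 in the input, is not drawn. Dynein heavy chains had a median of 2.37 FPKM and the other genes one of 28.9 FPKM, and the sperm paralogs Rsph6a and Dnah8 lie far above Rsph4a and Dnah5.

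Heavy chains, at a median of 2.37 FPKM over 15 genes, were lower per length than the other 56 genes, whose median was 28.9 FPKM. Dnah8 was the highest of them, at 11.5, 11.3 and 12.6 FPKM. Its merged exons span 26820 bases, more than the 16685 bases of its longest annotated transcript, so this length lowers its FPKM. Reverse transcription was primed with oligo(dT), and coverage along transcripts was not examined. Lower levels of heavy chains and poorer coverage of their long transcripts cannot be told apart. The inner arm heavy chains lay closer together, from 4.79 FPKM for Dnah1 to 0.939 FPKM for Dnah10, apart from Dnah12, which had 1 count in 1 IgG library and 0 counts in the other 8.

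The outer arm chains and the spoke head proteins include pairs in which 1 paralog serves sperm and the other serves motile cilia of epithelia, and the sperm form was the higher in every pair. Dnah8, the sperm gamma-type outer arm chain, was 53.2 ± 1.36 times (SD, n = 3) its ciliary counterpart Dnah5, which stood at 0.222, 0.212 and 0.231 FPKM. Dnah17, the sperm beta-type chain, at 4.37, 4.45 and 4.78 FPKM, was 6.73 ± 0.737 times Dnah9 and 59.8 ± 31.7 times Dnah11, both used in respiratory cilia. Rsph6a, the spoke head protein of sperm, at 96.7, 97.3 and 92.6 FPKM, was 836 ± 239 times Rsph4a, which rested on 10, 12 and 10 counts. In every input library each sperm paralog was above its ciliary counterpart.

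The IgG-enriched group was set against the input to compare the shares of these mRNAs after recovery without the ac4C antibody. The groups also differed in the material that entered amplification. For the input, the paper describes dilution of the mRNA to a known strength. Precipitated mRNA, from IgG and acRIP alike, was too scarce to measure, and a fixed volume went into each library. The part of RNA amount in differences of IgG or acRIP from the input was not tested. Of the 71 genes, 69 passed the filter on low counts and were tested, and Dnah12 and Rsph4a were not. A gene was called when its adjusted p was under 0.05 and it changed by more than 2-fold. Cfap54 and Dnah10 were called higher in the IgG-enriched group than in the input and Cfap69, Cfap206 and Rsph3b lower, which is 2 and 3 of 69 genes, while 13.5% and 7.22% of all 22510 tested genes were called in these directions. By the adjusted p alone, 17 genes were higher and 37 lower, against 25.9% and 26% of all tested genes. The median log2 fold change of the axoneme genes was -0.22 and that of all tested genes -0.01.

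Smaller changes set the inner arm heavy chains apart from most other axoneme genes. Some roles split, with 2 outer arm heavy chains above 0 and 3 below, and 3 central apparatus genes above 0 and 4 below. All 9 tested inner arm heavy chains passed the adjusted p and were higher in the IgG-enriched group (all tested genes: 25.9%). Their median log2 fold change was 0.58. An offset for gene length takes from each library a smooth curve of counts on length, and it replaces the scaling between libraries (TMM) used elsewhere. Under this setting Dnah2 (0.15), Dnah6 (0.06) and Dnah7a (-0.01) no longer passed, and the heavy chains that did fell from 11 to 8. Without IgG replicate 2, Dnah6 did not pass either (0.25), nor did Dnah7a with upper quartile normalization (0.16). Dnah10, an inner arm chain, read 0.92, 0.943 and 0.955 FPKM in the input and 1.93, 1.93 and 1.66 FPKM in the IgG-enriched group. The groups did not overlap and the log2 fold change was 1.0 ± 0.11 (SE, adjusted p = 4.57e-09), so that its call turned on the threshold of 2-fold: it was lost under 7 of 10 other settings and without input replicate 1 or 2 or IgG replicate 1 or 2. The outer arm chains of sperm, Dnah8 and Dnah17, were higher by 0.75 ± 0.04 and 0.66 ± 0.06 on the log2 scale, and Dnah9 was lower at -0.75 ± 0.18. The other 55 tested genes had a median of -0.28, with 6 higher and 36 lower by the adjusted p (all tested genes: 25.9% and 26%).

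Cfap69, a protein of the central apparatus, read 87.9, 86.1 and 90.8 FPKM in the input and 36.3, 37.1 and 35.4 FPKM in the IgG-enriched group, and fell by 1.25 ± 0.04 on the log2 scale. Cfap206 went from 428, 426 and 426 FPKM to 203, 197 and 199 FPKM, and fell by 1.07 ± 0.03. Neither gene had overlapping libraries between these groups. Cfap54, also of the central apparatus and the only non-dynein gene called higher, had a log2 fold change of 1.11 ± 0.10 and is 14645 bases long. Its call was lost with the offset for gene length, at 0.79, and in the test against a fold change of 2, which also removed the calls of Dnah10, Cfap206 and Rsph3b and kept that of Cfap69.

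**Figure D2:**
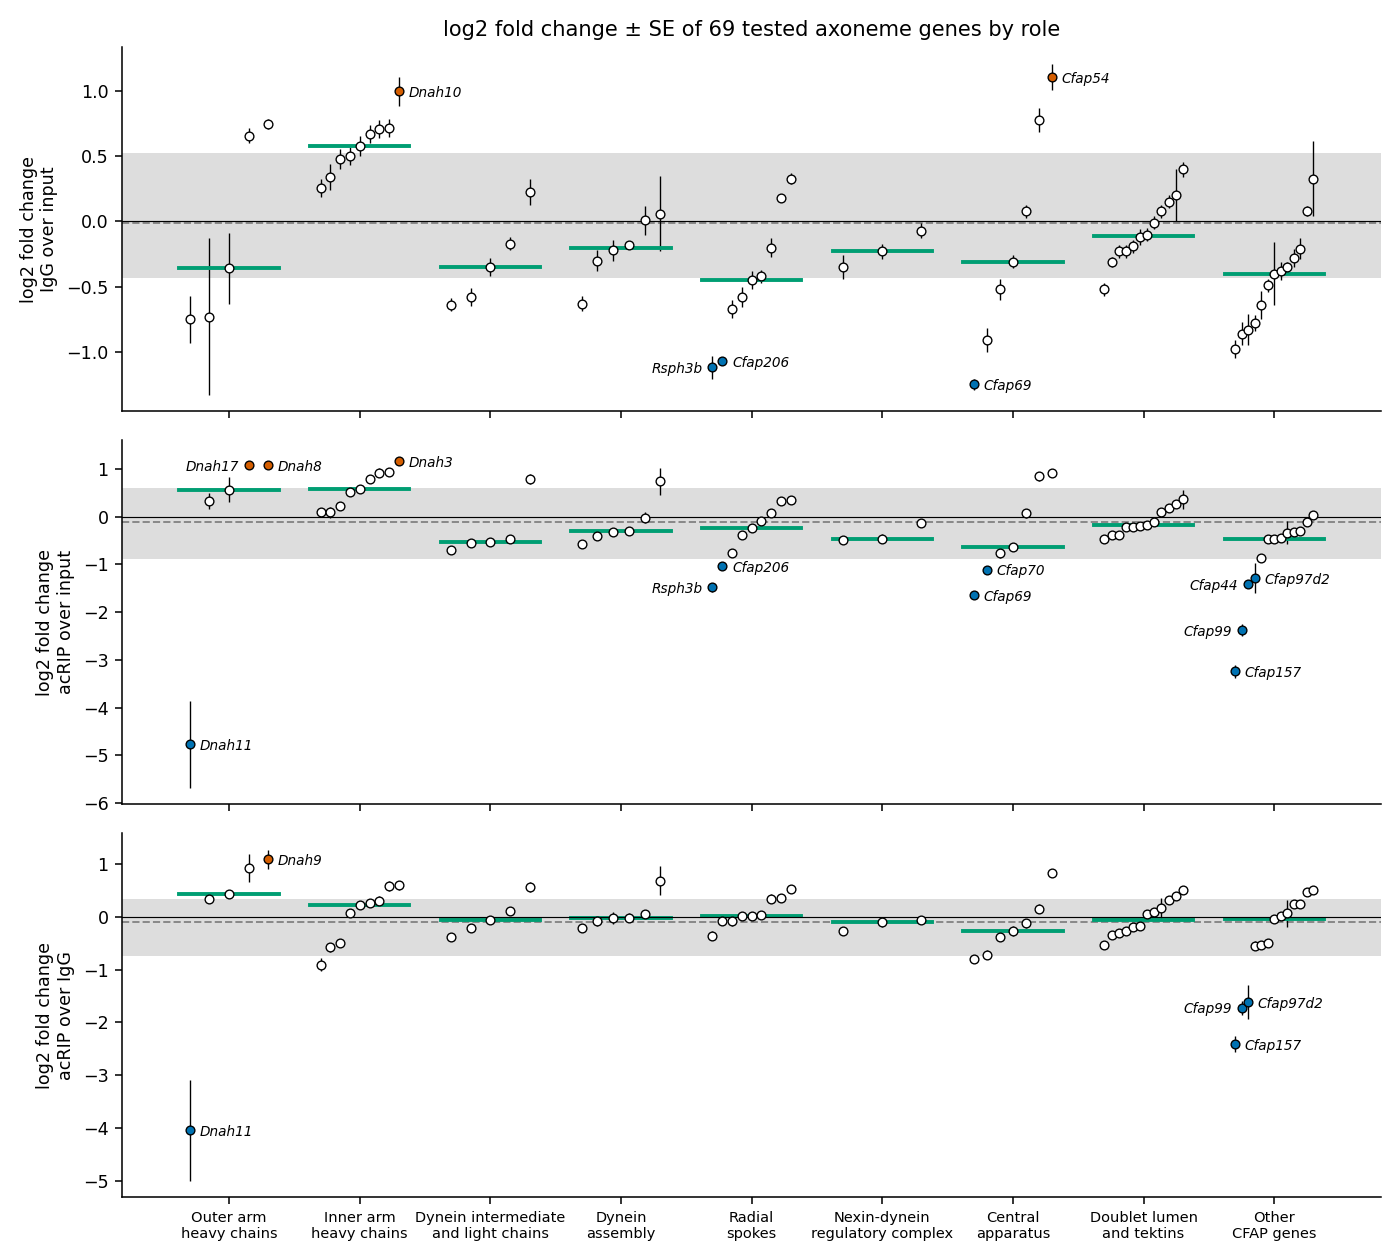
log2 fold change ± SE of the 69 tested axoneme genes in the 3 comparisons, grouped by role; orange points were called higher, blue points lower (adjusted p under 0.05 and more than 2-fold) and white points neither, green bars are medians of a role, and the grey band and dashed line are the quartiles and median of all 15522 tested protein-coding genes. Inner arm heavy chains lie above 0 in the upper and middle panels, and Dnah11, Cfap157, Cfap99 and Cfap97d2 fall far below the others in the lower panel.

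The acRIP group was compared with the input next. Dnah3, Dnah8 and Dnah17 were called higher and 9 genes lower among 69 tested (all tested genes: 17.7% higher and 22.9% lower). By the adjusted p alone 18 were higher and 38 lower, against 32% and 40.3% of all tested genes, and the median log2 fold change was -0.22, with -0.10 over all tested genes. This comparison and the previous one share the input libraries, so their values are given side by side and not correlated.

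Dynein heavy chains again lay on the higher side. Of 14 tested, 13 had a log2 fold change above 0 over the input and 9 of these passed the adjusted p (all tested genes: 32% higher). Dnah11 was called lower (22.9% of all tested genes). The median of the heavy chains was 0.57, and that of the other 55 genes was -0.34, with 13 above 0 and 42 below. Dnah8 read 19.3, 19.7 and 19.3 FPKM in the IgG-enriched group and 24, 23 and 23.9 FPKM in the acRIP group, after 11.5, 11.3 and 12.6 FPKM in the input. The 3 groups did not overlap, and Dnah8 rose by 1.08 ± 0.04 on the log2 scale over the input (adjusted p = 1.25e-21) and was 0.33 ± 0.04 higher than in the IgG-enriched group.

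Dnah17 showed the same order, with 6.91, 7.37 and 6.68 FPKM in the IgG-enriched group and 9.12, 8.6 and 9.4 FPKM in the acRIP group. Its rise over the input was 1.08 ± 0.06 on the log2 scale, and the difference from the IgG-enriched group was 0.42 ± 0.06. The inner arm chain Dnah3 read 2.23, 2.18 and 2.51 FPKM in the input, 3.33, 3.83 and 2.95 in the IgG-enriched group and 4.86, 5 and 4.89 in the acRIP group. Its groups were also separate, with log2 fold changes of 0.58, 1.17 and 0.59 for IgG over input, acRIP over input and acRIP over IgG. In each of these 3 genes the IgG libraries lay between the input and the acRIP libraries. With the offset for gene length, none of the 3 calls over the input was kept, and their log2 fold changes were then 0.58 for Dnah8, 0.79 for Dnah17 and 0.94 for Dnah3. The call of Dnah17 was also lost in the test against a fold change of 2.

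Length differed between these classes of genes. Heavy chain genes had merged exons of 12009 to 26820 bases (median 14968) and the other axoneme genes of 798 to 14645 bases (median 2951.5). Among the other 826 tested protein-coding genes above 12000 bases, the median log2 fold change was 0.30 for IgG over input, 0.20 for acRIP over input and -0.08 for acRIP over IgG, and 66.0%, 57.0% and 44.7% of them were above 0. The 15 axoneme genes in this length class (14 heavy chains and Cfap54) had medians of 0.58, 0.57 and 0.26, with 12, 14 and 10 above 0. With the offset for length the heavy chain medians were 0.22, 0.35 and 0.35. Across the 69 axoneme genes, log2 length and log2 fold change over the input had a Pearson r of 0.27 and a Spearman rho of 0.38 for acRIP, and 0.45 and 0.35 for IgG, values that describe genes sharing the same libraries. Over the 55 genes without heavy chains, r was 0.11 and rho was -0.00 for acRIP and 0.16 and 0.06 for IgG. GC content separated the classes less, with a median of 47.9% in heavy chain transcripts and 51.7% in the others. The offset also replaced TMM, so the changes it brought are not those of length alone. The part of length in the heavy chain values was not tested beyond these settings.

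**Figure D3:**
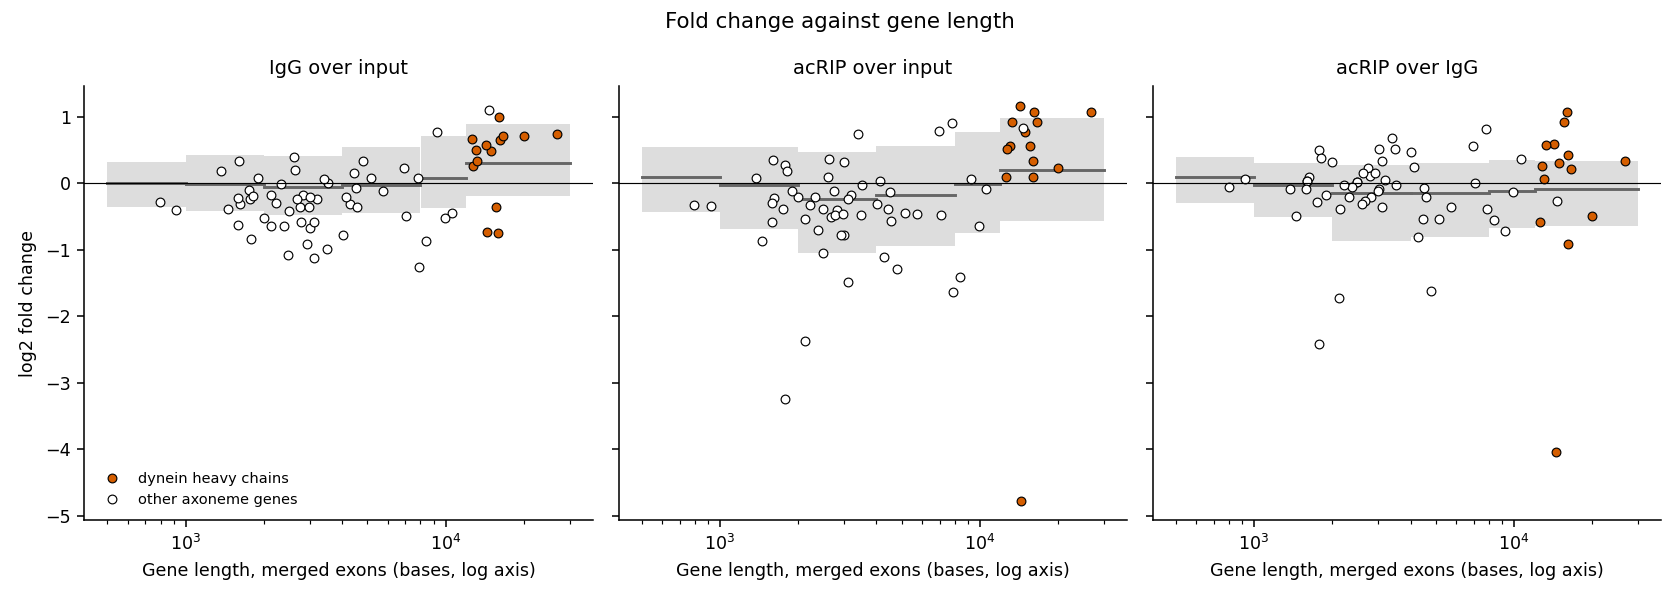
log2 fold change of the 69 tested axoneme genes against gene length (merged exons, log axis) in the 3 comparisons; orange points are dynein heavy chains, white points the other genes, and grey bands and bars are the quartiles and medians of the other tested protein-coding genes in 6 classes of length. Over the input, heavy chains lie mostly above 0 for IgG (11 of 14) and acRIP (13 of 14), and genes of their length have medians of 0.30 and 0.20.

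Among the genes called lower in acRIP than in the input, several were already below the input in the IgG-enriched group. Cfap69 reached 27.6, 24.5 and 28.3 FPKM (log2 fold change -1.64 ± 0.04 over input), and Cfap206 reached 194, 198 and 197 FPKM (-1.04 ± 0.03). Rsph3b, a radial spoke protein, read 19.6, 19.2 and 20.8 FPKM in the input, 10, 8.24 and 8.58 FPKM in the IgG-enriched group and 6.65, 6.77 and 6.7 FPKM in the acRIP group, a fall of 1.48 ± 0.09 on the log2 scale. Cfap44, needed for sperm tail formation, went from 7.38, 7.21 and 7.51 FPKM to 4.31, 3.86 and 3.75 FPKM and then 2.25, 2.72 and 2.89 FPKM. In Cfap69, Rsph3b and Cfap44 the acRIP libraries also lay below every IgG library, by -0.39, -0.36 and -0.55 on the log2 scale, and in Cfap206 acRIP and IgG overlapped. Cfap70, of the central apparatus, was lower than the input by -1.11 ± 0.05, and IgG was lower than the input by -0.31 ± 0.05. The offset for gene length ended the calls of Cfap206 (-0.89) and Cfap70 (-0.99) over the input, and that of Cfap206 was lost in the test against a fold change of 2 as well. In the group of other CFAP genes, 11 of 13 were lower than the input by the adjusted p in acRIP and 10 in IgG (all tested genes: 40.3% and 26%). In both groups 0 were higher, also at an unadjusted p under 0.05 (all tested genes by the adjusted p: 32% and 25.9%).

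The comparison of acRIP with the IgG-enriched group asks which mRNAs took a larger or smaller share with the anti-ac4C antibody than with IgG. Counts were scaled within each library and not to the added beta-globin probe, so amounts of RNA recovered were not compared. Only 1 of 69 genes, Dnah9, was called higher, and 4 were called lower, whereas 11.5% and 20.9% of all tested genes were called in these directions (9.01% and 19.7% of tested protein-coding genes). By edgeR's quasi-likelihood test, 0 axoneme genes were called higher than both controls (all tested genes: 7.88%), and the count was 0 with DESeq2 too. With no limit on the fold, 13 genes were higher than both by the adjusted p (all tested genes: 18.2%) and 14 at an unadjusted p under 0.05 (14 with DESeq2). The 13 were the heavy chains Dnah2, Dnah3, Dnah6, Dnah7a, Dnah8, Dnah14 and Dnah17 with Cfap65, Cfap126, Dnaaf2, Dnal1, Rsph14 and Tekt5, and their log2 fold changes over IgG lay between 0.21 (Dnah14) and 0.82 (Cfap65). Dnah14 no longer passed over IgG without acRIP replicate 1 (0.16), and Dnaaf2, whose acRIP and IgG libraries overlapped, depended on several libraries. Over IgG, 23 genes were higher and 26 lower by the adjusted p alone, against 26.4% and 37.6% of all tested genes. The median log2 fold change was -0.02, and -0.09 over all tested genes. A second rule, which is not the study's own definition of ac4C(+) transcripts, required a ratio of mean FPKM + 1 above 2 to both controls and an unadjusted limma p under 0.05 against each. It was met by 0 axoneme genes and by 1.97% of 35699 genes with a count. The highest ratio of any axoneme gene was 1.668 to IgG and 1.927 to the input, so the ratios alone kept every axoneme gene out. Adding 1 FPKM pulls the ratios of scarce genes toward 1, and Dnah9 stood at 1.298 to IgG. With 0.1 added, the highest ratios were 1.842 and 2.083, and the rule was met by 0 axoneme genes and 5.08% of all.

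Level bears on how often a gene was called. Of 45 axoneme genes above 10 FPKM in the input, 0 were called higher and 2 lower than IgG, and among the other 4202 protein-coding genes at this level 0.309% were called higher and 2.36% lower. Below 1 FPKM, 1 of 6 tested axoneme genes was called higher and 2 lower, beside 20.1% and 38.5% of the other 5014 protein-coding genes. The 18 genes between these levels gave no call, beside 6.03% higher and 16.4% lower among 6237 genes. Over the input, 1 of the 45 was called higher and 6 lower in acRIP (other genes: 3.71% and 9.23%). In IgG these were 0 and 3 (3.38% and 2.55%). Of the 18, 2 were called higher and 1 lower in acRIP (13.6% and 19.5%), and 1 and 0 in IgG (11.6% and 5.21%). Of the 6, 0 were called higher and 2 lower in acRIP (29.3% and 35.0%), and 1 and 0 in IgG (23.3% and 10.7%).

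Dnah9, an outer arm heavy chain of ciliated epithelia, read 0.616, 0.757 and 0.664 FPKM in the input, 0.351, 0.484 and 0.341 FPKM in the IgG-enriched group and 0.955, 0.656 and 0.807 FPKM in the acRIP group. Every acRIP library was above every IgG library, but acRIP and input overlapped. The log2 fold change was 1.08 ± 0.18 over IgG (adjusted p = 5.36e-06) and 0.33 ± 0.17 over the input (adjusted p = 0.0823). It rested on 195 to 244 counts in acRIP and 82 to 145 in IgG. Its call over IgG was lost without IgG replicate 3 or acRIP replicate 1 (log2 fold change 0.95 at the lowest) and in a test against a fold change of 2. Dnah5 had a similar course, at 0.223, 0.17 and 0.12 FPKM in IgG and 0.291, 0.377 and 0.259 FPKM in acRIP. The log2 difference of 0.92 ± 0.27 passed the adjusted p (0.00427) but not the 2-fold limit. It rested on 35 to 51 counts in IgG and 68 to 110 in acRIP.

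Dnah11, the third ciliary outer arm chain, went the other way. It had 42, 39 and 16 counts in the input, 12, 7 and 20 in the IgG-enriched group and 0, 2 and 0 in the acRIP group. The groups acRIP and IgG did not overlap, and acRIP was at least 4.3-fold lower than IgG and at least 7.27-fold lower than the input, taking 3 counts per library as the limit that a count of 0 allows, or 2.15-fold and 3.64-fold with 6 counts in case both mates were counted. Rsph4a, the ciliary spoke head gene, had 10, 12 and 10 counts in the input and 0 in all 6 precipitated libraries, at least 2.49-fold lower in acRIP and 2.5-fold lower in IgG against 3 counts and 1.25-fold in both against 6. Crisp1, the only epididymal marker high enough to test, was also lower in acRIP, with means of 2.15 FPKM in the input, 1.58 in IgG and 0.113 in acRIP. Fewer genes had a count in acRIP libraries (22206 to 22402) than in IgG (26204 to 26874) or input libraries (28552 to 29642). Below 1 FPKM in the input, 38.5% of the other protein-coding genes were called lower than IgG, so loss of scarce mRNAs was not particular to these genes. The parts of this general loss, of RNA amount and of the epithelium in the values of Dnah11 and Rsph4a were not tested. The 7 markers of multiciliated cells summed to 90.5 to 93.2 FPKM in the input, 78 to 81 in IgG and 82.5 to 87 in acRIP. Deup1 took most of this sum, with means of 79, 59.8 and 62.7 FPKM, and was 0.12 higher than IgG on the log2 scale (adjusted p = 0.0176). Foxj1 averaged 11.8, 18.1 and 21.6 FPKM and was 0.30 higher than IgG (adjusted p = 0.00133). The scarce markers Ccno (1.08, 1.02 and 0.111 FPKM on average) and Gmnc (0.0161, 0.141 and 0 FPKM) were called lower than IgG, and Mcidas, Trp73 and Myb had too few counts to test.

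The remaining 3 genes called lower than IgG are CFAP genes, and all 3 were also called lower than the input. Cfap157 (chromosome 2, 32777381 to 32784428, mm10), a basal body-associated protein needed for sperm tail shape, read 27.3, 27.2 and 26.7 FPKM in the input, 18.1, 14.5 and 12.3 FPKM in the IgG-enriched group and 1.89, 3.23 and 2.95 FPKM in the acRIP group. The 3 groups were separate, and the log2 fold change was -2.41 ± 0.15 over IgG (adjusted p = 2.64e-14) and -3.24 ± 0.14 over the input. Cfap99 (chromosome 5, 34288600 to 34327327) read 16.2, 18.4 and 16.9 FPKM, then 11.4, 10.7 and 10.2 FPKM, then 2.85, 2.7 and 3.9 FPKM, with log2 fold changes of -1.72 ± 0.13 and -2.37 ± 0.13. Its acRIP libraries were likewise below every other library. Cfap97d2 (chromosome 8, 13705889 to 13743414), much less abundant, read 0.824, 0.757 and 0.826 FPKM in the input, 0.754, 0.865 and 1.33 FPKM in IgG and 0.143, 0.369 and 0.41 FPKM in acRIP. Its input and IgG libraries overlapped and its acRIP libraries lay below both, with a log2 fold change of -1.62 ± 0.32 over IgG; the call over the input was lost without acRIP replicate 1, at -0.95, and in the test against a fold change of 2. The calls of Cfap157 and Cfap99 were kept under every setting and each library left out. With Dnah11 these 3 genes are the 4 that were called lower than both controls (all tested genes: 17%).

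**Figure D4:**
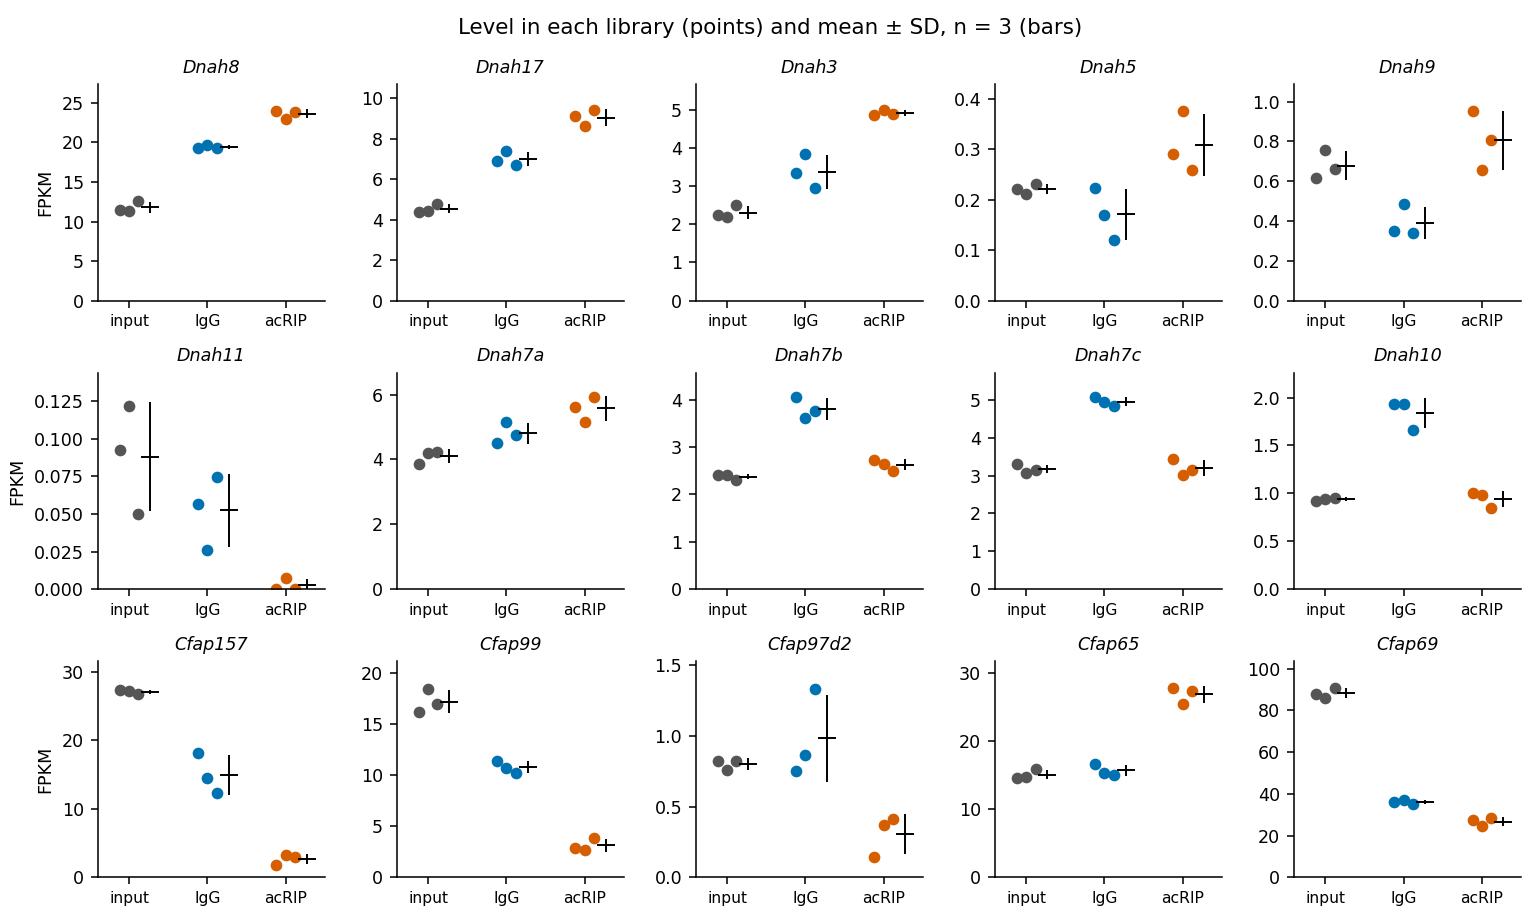
FPKM of 15 axoneme genes in each of the 3 libraries of the input (grey), IgG-enriched (blue) and acRIP (orange) groups, with the mean ± SD (n = 3) beside the points; each panel has its own linear axis from 0. Dnah8, Dnah17 and Dnah3 step up from input to IgG to acRIP, Dnah7b, Dnah7c and Dnah10 are highest in IgG, and Dnah11, Cfap157, Cfap99 and Cfap97d2 are lowest in acRIP.

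Near-copies of the inner arm chain did not move alike. Dnah7a read 3.87, 4.21 and 4.24 FPKM in the input, 4.5, 5.15 and 4.75 in IgG and 5.62, 5.16 and 5.93 in acRIP, and was higher than IgG by 0.26 ± 0.07 on the log2 scale. Dnah7b read 2.4, 2.4 and 2.31 FPKM, then 4.06, 3.6 and 3.75, then 2.73, 2.63 and 2.5, and was lower than IgG by -0.49 ± 0.07. Dnah7c read 3.3, 3.08 and 3.15 FPKM, then 5.09, 4.94 and 4.84, then 3.43, 3.02 and 3.14, at -0.58 ± 0.08. The ratio of Dnah7a to Dnah7b in FPKM was 1.27 ± 0.161 in IgG and 2.13 ± 0.214 in acRIP (SD, n = 3), with no overlap between libraries. Merged exons of Dnah7b span 19984 bases, more than the 12314 bases of its longest annotated transcript, which lowers its FPKM in every group. By counts, Dnah7a was below Dnah7b in every IgG library and above it in every acRIP library. Only 10.42% to 13.31% of the 150-base stretches of these transcripts are shared among the 3 genes, and counting of uniquely mapped reads leaves such stretches out. The inner arm chain Dnah10 followed Dnah7b and Dnah7c, at 1, 0.984 and 0.849 FPKM in acRIP and -0.91 ± 0.12 on the log2 scale below IgG. Rsph3a and Rsph3b share over 50% of their 150-base stretches (52.65% and 59.41%), so their counts leave out much of each transcript and the size of their ratio is uncertain. Rsph3a was 2.2 ± 0.167 times Rsph3b in IgG and 2.64 ± 0.427 times in acRIP.

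Across the other roles, differences between acRIP and IgG stayed under 2-fold and in most roles went in both directions. In the central apparatus 1 of 7 genes was higher by the adjusted p and 4 lower (all tested genes: 26.4% and 37.6%). Cfap65, required for the sperm tail, was the higher one. It read 16.7, 15.3 and 15.1 FPKM in IgG and 27.8, 25.4 and 27.4 FPKM in acRIP, with 14.6, 14.8 and 15.9 in the input. All acRIP libraries were above both controls, by 0.82 ± 0.05 on the log2 scale over IgG (adjusted p = 4.11e-14) and 0.91 ± 0.05 over the input, short of the 2-fold limit. Cfap70 was the lowest of that role, at -0.80 ± 0.05 over IgG.

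Radial spoke genes had 3 of 9 tested genes higher and 2 lower than IgG by the adjusted p. Over all tested genes these shares were 26.4% and 37.6%, which also stand beside the counts of the roles below. Rsph1 read 787, 756 and 730 FPKM in IgG and 681, 687 and 692 in acRIP, a log2 difference of -0.09 ± 0.03, and Rsph14 at 0.52 ± 0.08 was the highest of the role. Doublet-lumen proteins and tektins had 4 of 12 higher and 6 lower. Tekt1 read 215, 215 and 212 FPKM in IgG and 220, 220 and 219 in acRIP, and its log2 difference of 0.09 ± 0.04 was at the edge of the adjusted p (0.049) and was lost when any 1 of 6 of the 9 libraries was left out. Cfap126 was the highest of these genes at 0.50 ± 0.05 and Cfap20 the lowest at -0.53 ± 0.05. Dynein assembly factors had 1 of 6 higher (Dnaaf2, 0.68 ± 0.28) and 1 lower (Dnaaf1, -0.21 ± 0.03), and Dnaaf2 shares 35.82% of its 150-base stretches with 2 predicted genes. The result of Dnaaf2 over IgG (adjusted p = 0.0372) was lost without IgG replicate 2 (0.40) or acRIP replicate 1 or 3, and that over the input (0.74 ± 0.28, adjusted p = 0.0184) without input replicate 2 (0.59) or the same acRIP libraries. Dynein intermediate and light chains had 1 of 5 higher (Dnal1, 0.56 ± 0.10) and 2 lower, of which Dnali1, the most abundant, was at -0.38 ± 0.05. Of the 3 tested genes of the nexin-dynein regulatory complex, Drc1, at -0.27 ± 0.06, was lower by the adjusted p and 0 were higher, also at an unadjusted p under 0.05. In the remaining CFAP genes Cfap58, at 0.51 ± 0.07, was the highest, and Cfap36, the most abundant, was at 0.23 ± 0.04. Many of these genes overlap antisense transcripts, and since use of strand in counting is not stated, reads of both cannot be told apart; Dnaic1 and Enho, on opposite strands, overlap by 15 bases, and Dnaic1 was at 0.11 ± 0.07 over IgG (adjusted p = 0.181).

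A list of other axoneme and ciliary genes outside the symbol rule was read in the same way. Of 72 genes matched, 69 were tested, and edgeR called 0 higher than IgG (17 at an unadjusted p under 0.05 with no limit on the fold) and 4 lower (Ccdc151, Ruvbl1, Spef2 and Gmnc), with a median log2 fold change of -0.08 (all tested genes: 11.5% higher and 20.9% lower, median -0.09). Over the input, Spag1, Wdr66 and Rfx1 were called higher and 11 genes lower in acRIP, with a median of -0.40 (17.7% and 22.9% of all tested genes, median -0.10). In IgG over input, Spag1, Wdr66 and Gmnc were called higher and 7 genes lower, with a median of -0.22 (13.5% and 7.22%, median -0.01). Ccdc39, a ruler protein that sets the repeat of the axoneme, averaged 19.3, 6.58 and 4.55 FPKM in the input, IgG and acRIP, and was called lower than the input in both precipitated groups; its partner Ccdc40 averaged 13.3, 6.03 and 6.88 FPKM and was called lower in IgG. Hydin, a large central apparatus protein, averaged 3.32, 4.22 and 4.18 FPKM, and its acRIP and IgG levels differed by 0.04 on the log2 scale (adjusted p = 0.663). Regulators of ciliary genes moved in both directions. Rfx4, the most abundant of them in the input, averaged 27.2, 17.4 and 9.42 FPKM and was called lower in acRIP than in the input, at -1.45 on the log2 scale (adjusted p = 1.57e-19). Rfx1 averaged 3.84, 6.27 and 7.75 FPKM and was called higher, at 1.09 (adjusted p = 2.84e-13). Foxj1, at 0.96 over the input, Rfx3, at 0.68, and Rfx2, at 0.27, also passed the adjusted p there without reaching the 2-fold limit. In IgG, Foxj1 (0.66), Rfx3 (0.20), Rfx2 (0.62) and Rfx1 (0.74) were higher than the input as well. Against IgG, acRIP was higher for Foxj1 (0.30), Rfx3 (0.48) and Rfx1 (0.35) and lower for Rfx2 (-0.35) and Rfx4 (-0.84).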

How the data were processed

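Testis poly(A) RNA was sequenced by Smart-seq2 in 9 libraries, 3 per group, grouped by the sample titles. The authors trimmed reads with Trim Galore 0.6.7, mapped them to mm10 with STAR 2.7.10a and deposited counts of uniquely mapped reads per gene from featureCounts 2.0.2, without normalization; strand use and the counting of mates are not given in the sources used here. Gene lengths are those deposited with the counts. Of 55401 identifiers, 55141 were named by GENCODE vM21. Per-sample columns not used numbered 0.

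Counts were tested with edgeR 4.0.16 in R 4.3.3 (filterByExpr, TMM, quasi-likelihood test in a model of all 9 libraries with a mean for each group, p adjusted by Benjamini-Hochberg across 22510 genes). The FPKM + 1 rule used limma 3.58.1 on genes with a count, with an unadjusted p under 0.05, where the study names Student's test and DESeq2. On simulated counts for acRIP over IgG (21524 genes), the test recovered 97 of 100 genes changed 2.83-fold and 100 of 100 changed 4-fold, all with a mean of at least 50 counts, and called 0 unchanged genes; genes with fewer counts were not changed in it. Figures used Python 3.11.15. FPKM was computed from counts, length and total count. A role's highest gene in the input, its highest and lowest over IgG, genes called higher over IgG and near-copies were described in full. Alternatives were RLE and upper quartile normalization, DESeq2 1.42.0, other filters, 6 libraries only, a test against a fold change of 2 and a replicate block. Others were halved counts, a length offset in place of TMM, a pseudocount of 0.1 and each library left out. The genes and lists were chosen with earlier results of these data known. A count of 0 allows up to 3 counts; this covers counting error only. Peaks and protein sequences were not analysed here.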

Additional observations from a re-analysis of the deposited data

How the results depend on the processing

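Calls lower than IgG numbered 4, also with each library left out, and 3 where a gene needed 10 counts per library or the fit held just the 6 libraries compared, as did calls lower than both controls, which were 3 in the test against a fold change of 2 as well and 3 to 4 with each library left out. Those higher than IgG numbered 1, but 0 in the test against a fold change of 2 and 0 to 2 with each library left out. Those higher than the input in acRIP numbered 3, but 2 in that test and 0 with the offset for gene length; calls lower ranged from 7 to 10. In IgG over input, calls higher numbered 2 as reported, 1 with RLE, upper quartile, DESeq2, no filter or the replicate block, 0 in the test against 2-fold and with the length offset, and 1 to 2 with each library left out; calls lower numbered 3, but 5 with upper quartile and with no filter, and 1 in the test against 2-fold. That test, stricter by construction, left 0 of 9 heavy chains higher than IgG, 2 of 9 in acRIP over input and 0 of 11 in IgG over input.

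Medians kept their direction, except near 0 over IgG: -0.02 over all axoneme genes ranged from -0.02 to 0.03 under the other settings and became 0.08 with the length offset, and -0.06 without heavy chains became 0.05. The offset also took the median of heavy chains over the input to 0.35 in acRIP and 0.22 in IgG, and that of the other genes in acRIP to -0.24. Upper quartile normalization gave IgG over input medians of -0.32 for all, 0.44 for heavy chains and -0.37 for the others. With each library left out, the heavy chain median ranged from 0.55 to 0.66 in acRIP over input and from 0.47 to 0.62 in IgG over input. Single genes reversed with the length offset were Cfap36 (0.03) and Dnah7b (-0.15) in acRIP over input and Dnah7a (-0.01) in IgG over input. The cause was not tested.

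Libraries with the same number did not deviate together (r from -0.009 to 0.057), so the numbers were not read as pairs. The replicate block changed no count of calls other than that of 2 to 1 for genes higher in IgG than in the input. Dnah11, Dnaaf2, Dnah5 and Cfap97d2 rest on few counts, at most 42, 106, 110 and 124 in a library.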
